A study of Mus musculus with 24 samples.

Results

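The brains of newborn mice made by somatic cell nuclear transfer were compared with the brains of newborns conceived by sperm injection. The members are 8 of the 24 arrays in the series, chosen by their titles, with 4 arrays from clones (CC) and 4 from controls (NC). CC animals are labelled as somatic cell clones, and NC animals as normal controls produced by intracytoplasmic sperm injection (ICSI), in which a sperm is placed directly into an oocyte. All were female neonates from a cross of C57BL/6 x DBA2 mice with 129/Sv mice. In the serial cloning work to which these animals belong, the donor nucleus came from a cumulus cell, a somatic cell that surrounds the oocyte. Whether the 4 clones came from separate donors is not said in the labels, so the p-values measure the spread between these animals. Brains of clones of 20 generations (G20), with the same sex, age and genetic background, entered the model as another group. All 4 G20 brains carry the same source name, so the labels do not settle how many clone families they stand for. Each RNA sample was labelled with Cy3 from 0.5 ug of RNA and hybridised to its own single-colour Agilent array.

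In nuclear transfer the DNA of a differentiated cell is put into an oocyte without its own chromosomes and must return to an embryonic state. Marks that the germ line lays down, such as the methylation that lets only the maternal or paternal copy of an imprinted gene be read, are not rebuilt in a cloned embryo. In a female, one X chromosome is silenced by Xist, a long RNA that coats it, and a cumulus cell nucleus arrives with that choice already made. The Xlr3 and Xlr4 genes form a cluster of close copies on the X chromosome, and Xlr3b, Xlr4b and Xlr4c are known as imprinted genes of the mouse brain that are read mostly from the maternal X.

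Xlr3c and Xlr4b gave the largest falls among the genes on which both deposited sources agreed. Their promoters are shown because both genes fell and lie in the same cluster. Each sequence is the 250 bases before the start of the gene in RefSeq, on build GRCm38.p6, written 5′ to 3′ in the direction of the gene with CG dinucleotides in capitals. The Xlr3c stretch is chrX:73265391-73265640 on the minus strand, and the Xlr4b stretch is chrX:73214083-73214332 on the plus strand.
Xlr3c: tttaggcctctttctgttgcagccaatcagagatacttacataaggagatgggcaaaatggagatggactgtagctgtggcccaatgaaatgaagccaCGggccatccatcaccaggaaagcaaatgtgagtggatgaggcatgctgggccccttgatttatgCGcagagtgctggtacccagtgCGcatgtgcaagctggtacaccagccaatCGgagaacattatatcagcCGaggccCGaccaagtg
Xlr4b: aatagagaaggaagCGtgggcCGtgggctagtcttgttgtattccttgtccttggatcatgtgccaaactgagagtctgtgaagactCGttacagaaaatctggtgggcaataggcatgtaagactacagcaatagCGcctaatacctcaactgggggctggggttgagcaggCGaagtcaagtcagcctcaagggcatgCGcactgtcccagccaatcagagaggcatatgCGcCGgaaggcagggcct
The Xlr3c stretch holds 6 CG dinucleotides and the Xlr4b stretch 8. Of 32851 mouse promoters cut to the same length, 50.4% hold at least 6 and 43% at least 8. The Xlr4b stretch matched that of Xlr4c at 99.1% and that of Xlr4a at 98.4% of bases, at the best offset without gaps, and the Xlr3c stretch matched that of Xlr3b at 98.3% and that of Xlr3a at 33.6%. Between Xlr3c and Xlr4b the same measure gave 32.1%. With copies this alike, a probe can also take up RNA of the neighbouring genes, and the values below are for the probes that carry these names.

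Before any gene is read, the state of the CC arrays needs stating. The CC arrays of brain and liver were scanned together on 1 occasion, 172 days after the NC and G20 brain arrays, and each group had a slide of its own. Scan occasion, slide and group therefore cannot be told apart. The 75th percentile of signal was 814 to 937 units on the NC arrays and 403 to 467 units on the CC arrays. Between 68.7% and 70.8% of probes were well above background on NC arrays, against 63.0% to 64.5% on CC arrays. All 14 markers of newborn brain that were looked for were well above background on all 8 arrays. Among them were the neuronal genes Tubb3, Snap25 and Dcx and the glial genes Fabp7 and Olig1. In the fit described below, 3 of the 14 were called higher and 8 lower in CC, against 41.6% and 27.7% of all genes.

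Levels are log2 of the scanner's processed signal relative to the 75th percentile of the same array, with 1 probe for each gene, and differences are CC minus NC on that scale. At a Benjamini-Hochberg adjusted p under 0.05 in limma, 13021 of 18803 genes were called (69.2%), 7820 higher (41.6%) and 5201 lower (27.7%) in CC. The SD of the differences over genes was 0.73 for CC and 0.29 for G20 against the same NC arrays. The median difference over all genes was 0.14. It was 0.27 with arrays centred on their medians and 0.40 with the normexp background correction, so it moved with the scaling, and list medians below are set beside it. The NC and CC arrays did not overlap for 63.7% of genes.

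The deposited matrix of the authors' processed values gave a different count from the same 8 arrays. There, 120 of 16811 genes were called (0.714%), 44 higher and 76 lower, and the SD of the differences was 0.19. At an unadjusted p under 0.05 the share was 14.9%. Matrix values of NC and G20 arrays were the scanner values times nearly 1 factor for each array, and the log2 ratio of the sources varied over probes with an SD of at most 0.043 in brain. Those of the CC arrays carried a further factor for each probe, with an SD of 0.63 to 0.64. Over 24167 probes, which share the CC arrays and are not independent, that factor correlated with the scanner difference at a Pearson r of -0.97. The scanner values of CC enter both quantities with opposite sign, so a negative r is partly built in and is not a test.

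Where G20 and NC differed in the matrix, the CC level of most probes lay near that of G20 or of NC. In the matrix, 879 brain probes had G20 and NC medians at least 0.5 apart on the log2 scale. The CC median lay within 25% of that distance from the NC median in 390 of them and within 25% from the G20 median in 390. It lay between these zones in 71 and beyond them in 28. With a distance of at least 1, the counts were 68, 74, 1 and 0 of 143 probes. Of the 774 probes so placed that also had scanner values, 94.6% lay at the group that was nearer to CC in the scanner values. In liver, where 1932 probes were at least 0.5 apart, the CC median lay near the G20 median in 1830 and near the NC median in 1. For most of the 879 brain probes, the matrix difference between CC and NC was therefore close to either no difference or the G20 difference. Probes with G20 and NC closer together, of 24268 in all, were not placed in this way. The matrix is not a second, independent measurement of the CC brains.

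**Figure D1:**
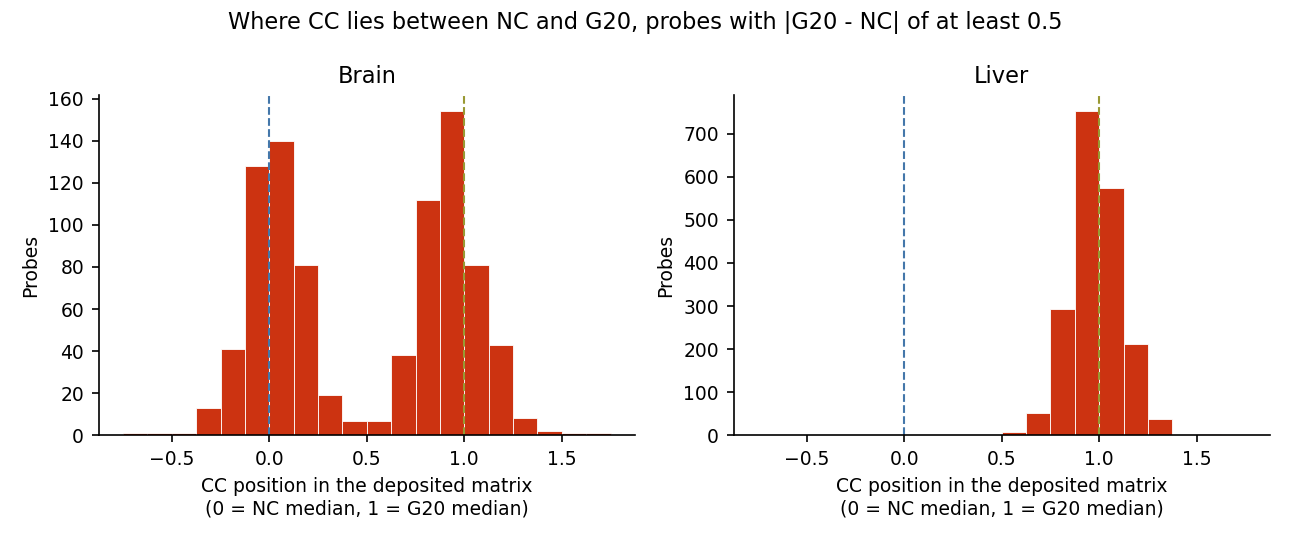
Position of the CC median in the deposited matrix for each probe whose G20 and NC medians lay at least 0.5 apart (log2), with 0 at the NC median and 1 at the G20 median, in brain (879 probes) and liver (1932 probes). Bars count probes, and values beyond the axis are in the end bars. Brain shows a pair of peaks, at the NC and at the G20 level, and liver a single peak at the G20 level.

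Against that background, 95 genes (0.565% of 16811) were called in the same direction in both sources, 40 higher (0.238%) and 55 lower (0.327%). In none of these genes did another measured probe point the other way in the scanner values. Of these, 69 had no other measured probe, and 26 had at least 1 more, of the same sign. In 91 the NC and CC arrays did not overlap in the scanner values. The median size of the difference was 0.92 in the scanner values and 0.55 in the matrix, and 38 genes differed at least 2-fold in the scanner values against 16 in the matrix. In the matrix, CC lay nearer to G20 than to NC in all 95, and the scanner difference between G20 and NC had the same sign as that of CC in all 95. CC and G20 share the NC arrays here, and the matrix placement described above bears on this count. A further 16 genes were called alike in both sources but had another probe of opposite sign, and 8 genes were called in the matrix only.

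**Figure D2:**
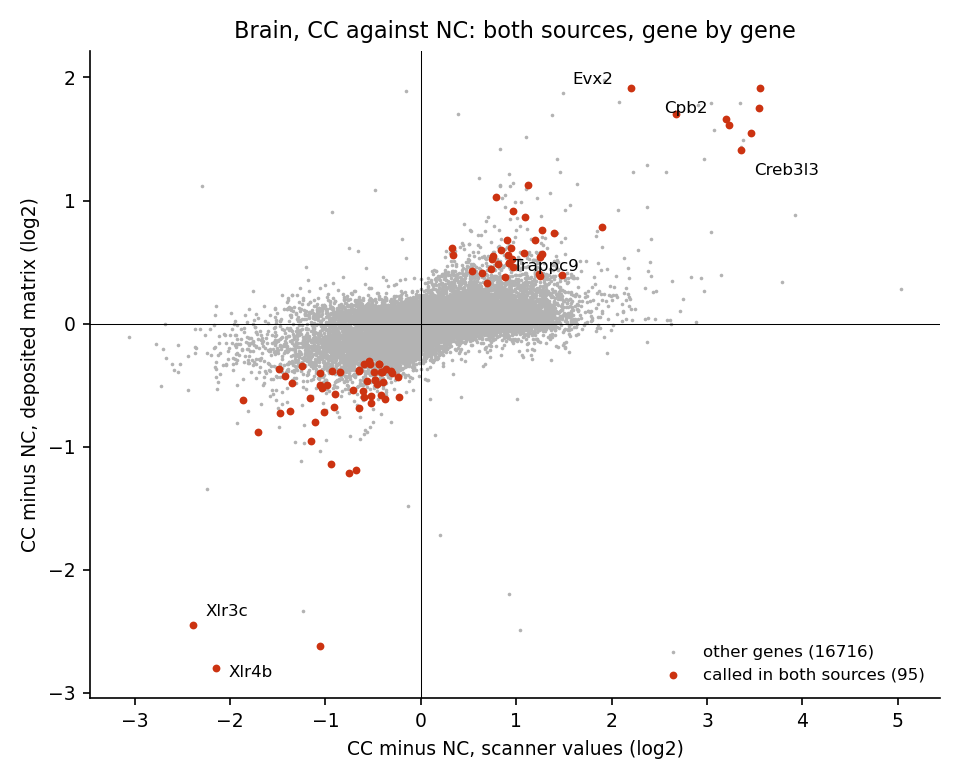
Difference between CC and NC brain for 16811 genes, with the scanner values on the horizontal axis and the deposited matrix on the vertical axis, both log2. Red points are the 95 genes called in both. Scanner differences spread widely at matrix differences near 0, while Xlr3c and Xlr4b lie at -2.39 and -2.15 on the horizontal and -2.45 and -2.80 on the vertical axis.

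Xlr3c, from the X-linked lymphocyte-regulated family, fell in the clones. Its probe lies at chrX:69507662-69507721 on build mm8. NC arrays 1 to 4 read -0.66, -0.41, -0.70 and -0.28, and CC arrays 1 to 4 read -2.34, -2.14, -3.94 and -3.16. All CC arrays lay below all NC arrays, with a gap of 1.44 between the groups, and the CC arrays spread over 1.80. The difference was -2.39 ± 0.35 (SE, adjusted p = 7.69e-05) in the scanner values and -2.45 ± 0.36 (adjusted p = 0.0151) in the matrix. G20 arrays read -3.00, -2.10, -2.61 and -3.26 and overlapped the CC arrays.

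Xlr4b, a neighbour of Xlr3c whose probe lies at chrX:69475117-69475176 on mm8, fell as well. NC arrays 1 to 4 read 0.06, 0.31, -0.02 and 0.46, and CC arrays 1 to 4 read -1.10, -1.34, -3.21 and -2.14. All CC arrays lay below all NC arrays, with a gap of 1.08 between the groups and a range of 2.11 within CC. CC array 3 was the lowest and CC array 4 the next lowest for both genes. The difference was -2.15 ± 0.41 (SE, adjusted p = 0.000552) in the scanner values and -2.80 ± 0.41 (adjusted p = 0.0153) in the matrix, and that of G20 was -2.42 in the scanner values. Both Xlr genes dropped out of the 95 in 3 of 19 alternatives, among them the fits without NC array 2 and without CC array 4. Xlr itself, another member of the family, went the other way in the scanner values at 1.24 ± 0.12 (adjusted p = 3.13e-06), with both of its probes higher, and its matrix difference was 0.27 (adjusted p = 0.36).

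The other 12 named falls were of genes with varied roles. Ddx19a, an RNA helicase of mRNA export, read -0.89 to -0.59 in NC and -2.70 to -2.45 in CC, a difference of -1.86 ± 0.12 (adjusted p = 1.41e-07) with its other probe at -1.39. Its matrix difference was -0.62, and G20 differed from NC by -0.65 in the scanner values. The G20 difference of Ddx19a in the matrix was -0.66, so CC lay below G20 in the scanner values and close to it in the matrix. Ddx19a lost its call in both sources in 9 of 19 alternatives, including all 8 fits without an array.

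Myst4, a histone acetyltransferase also known as Kat6b, differed by -1.71 in the scanner values and -0.88 in the matrix. Zkscan3, a zinc finger protein known as a repressor of autophagy genes, differed by -1.42 and -0.42. Clip2, a linker protein of microtubules, differed by -1.35 and -0.48. For each of these genes the scanner value came first and was the larger in size. Myst4, Zkscan3 and Clip2 lost their call in both sources in 14, 11 and 12 of 19 alternatives.

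Ttll4, a tubulin polyglutamylase, differed by -1.04 in the scanner values, and its other 3 probes read between -1.70 and -0.36. The Ttll4 probe at -0.36 was not called (limma adjusted p over probes = 0.173). Has3, a hyaluronan synthase, differed by -1.25, and Nsdhl, an X-linked enzyme of cholesterol synthesis, by -0.85 with its other 3 probes between -1.31 and -0.46. The Nsdhl probe at -0.46 was not called (limma adjusted p over probes = 0.244) and read 0.29 in the matrix. Mak16, a factor of ribosome assembly, differed by -0.94 with the other probe at -0.89. Zswim5, Zfp365 and Zfp759, which encode zinc finger proteins, differed by -1.49, -1.15 and -1.06. The matrix differences of the brightest probes of these genes lay between -0.95 and -0.34. Zswim5 and Zfp759 lost their call in both sources in 13 of 19 alternatives and Mak16 in 12. Has3 and Nsdhl lost it in 11, Ttll4 in 10 and Zfp365 in 7.

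Uevld, which encodes a protein with a ubiquitin-conjugating-like domain and a dehydrogenase-like domain, fell by a like amount in both sources. NC arrays read -1.38 to -1.28 and CC arrays -2.32 to -2.20. Its difference was -0.94 ± 0.10 (adjusted p = 4.42e-06) in the scanner values and -1.14 ± 0.09 (adjusted p = 0.000385) in the matrix. The other probe of Uevld read -0.13 in the scanner values (adjusted p over probes = 0.632) and -0.14 in the matrix, so the fall was called with 1 of its probes, and Uevld lost its call in both sources in 5 of 19 alternatives.

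Genes of hepatocytes led the rises. Creb3l3, a membrane-bound transcription factor of liver metabolism, read -2.56, -2.93, -2.63 and -2.37 on the NC arrays and 0.90, 0.89, 0.61 and 0.55 on the CC arrays. The gap between the groups was 2.92, and the difference was 3.36 ± 0.25 (adjusted p = 3.97e-07) in the scanner values and 1.41 ± 0.25 (adjusted p = 0.0335) in the matrix. G20 arrays read -0.93, -1.23, -2.21 and -0.84, between the NC and CC arrays. Creb3l3 was no longer called in both sources in 9 of 19 alternatives, among them all 8 fits without an array, and Cpb2, the next gene, in 7.

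Cpb2, a carboxypeptidase that the liver releases into plasma, read -3.20, -3.77, -3.59 and -2.84 on the NC arrays and 0.05, 0.03, -0.20 and -0.46 on the CC arrays. Its difference was 3.20 ± 0.30 (adjusted p = 1.92e-06) and 1.66 ± 0.29 in the matrix (adjusted p = 0.0352). Gckr, the regulator of glucokinase in liver, differed by 1.24 in the scanner values and 0.41 in the matrix, and lost its call in both sources in 14 of 19 alternatives.

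Markers of liver tissue also rose, in a list of plasma protein genes that is not separate from these genes. Cpb2 is itself on that list and is its only member called in both sources. Of 24 plasma protein genes of the liver, 11 were measured and 9 rose (81.8%, against 41.6% of all genes), with a median difference of 1.92 in the scanner values and 0.13 in the matrix. Of the 11, 7 were well above background on all NC arrays and 8 on all CC arrays. A member could thus be kept through a clone group in which it was high, and the share is not a test. The median NC level of the list was -4.70, so these were dim genes. In the lowest of 4 equal classes of genes by NC level, 33% were higher. Alb, the gene of serum albumin, read -4.60, -4.23, -4.69 and -4.47 in NC and -1.30, -2.52, -4.13 and -3.03 in CC, a difference of 1.76 ± 0.45 (adjusted p = 0.0042). Afp, the foetal form of albumin, differed by 1.89, and Ahsg, a plasma glycoprotein of the liver, by 2.24. The signal of the measured members, Cpb2 among them, was summed as multiples of the 75th percentile. The sum was 0.683 to 0.816 on NC arrays, 1.64 to 4.83 on CC arrays and 0.907 to 1.33 on G20 arrays. Alb was highest on CC array 1 and lowest on CC array 3, where it lay 0.10 above the highest NC array. Creb3l3 spread over 0.35 across the CC arrays, while Alb spread over 2.83. The part of liver RNA in the values of Creb3l3, Cpb2 and Gckr was not tested.

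Evx2, a homeobox gene of the posterior embryo, differed by 2.20 ± 0.38 (adjusted p = 0.000257) and 1.91 in the matrix, the largest matrix rise among the named genes. NC arrays read -3.48, -4.23, -3.76 and -2.98, CC arrays -1.47, -1.59, -0.94 and -1.65, and G20 arrays -1.46, -2.13, -3.21 and -1.30. The CC arrays were closer to each other than either of the other groups. Evx2 lost its call in both sources in 11 of 19 alternatives, including all 8 fits without an array.

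Hprt, the X-linked enzyme of purine salvage that is often used as a reference gene, read 2.63 to 2.73 in NC and 4.09 to 4.20 in CC. The difference was 1.48 ± 0.08 (adjusted p = 8.63e-08), with 0.39 in the matrix and a G20 difference of 0.39 in the scanner values, and it lost its call in both sources in 11 alternatives. Cdkn3, a phosphatase that acts on cell cycle kinases, differed by 1.90, and its other probe by 0.77. Cox16, an assembly factor of cytochrome c oxidase, differed by 1.25 and its other probe by 0.87. Cdkn3 and Cox16 lost their call in both sources in 10 and 11 of 19 alternatives.

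P4ha2, a subunit of collagen prolyl hydroxylase on the list of hypoxia genes, differed by 1.40, and Tekt1, a structural protein of cilia, by 1.25 with its other probe at 0.24 (adjusted p over probes = 0.0761). Ppp1r3g, which targets a phosphatase to glycogen, Fndc1 and Ctla2b differed by 1.27, 1.27 and 1.19. In the matrix these 5 genes read between 0.39 and 0.76. P4ha2 and Ppp1r3g lost their call in both sources in 11 of 19 alternatives, Tekt1 in 10, Fndc1 in 7 and Ctla2b in 2.

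Ramac, the activating subunit of the mRNA cap methyltransferase, read 2.16 to 2.41 in NC and 3.30 to 3.36 in CC. It differed by 1.08 ± 0.07 (adjusted p = 2.43e-07) and 0.57 ± 0.07 in the matrix (adjusted p = 0.00456), and its other 2 probes by 0.69 and 0.56. Ramac, Trappc9 and Aim1l were the only genes of the 95 that stayed called in both sources in all 19 alternatives. Aim1l was singled out after its values were seen, and differed by 0.94 ± 0.08 and 0.62 in the matrix. Its 4 CC arrays read -1.44, -1.66, -1.56 and -1.76, and its NC arrays -2.46, -2.63, -2.54 and -2.57.

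**Figure D3:**
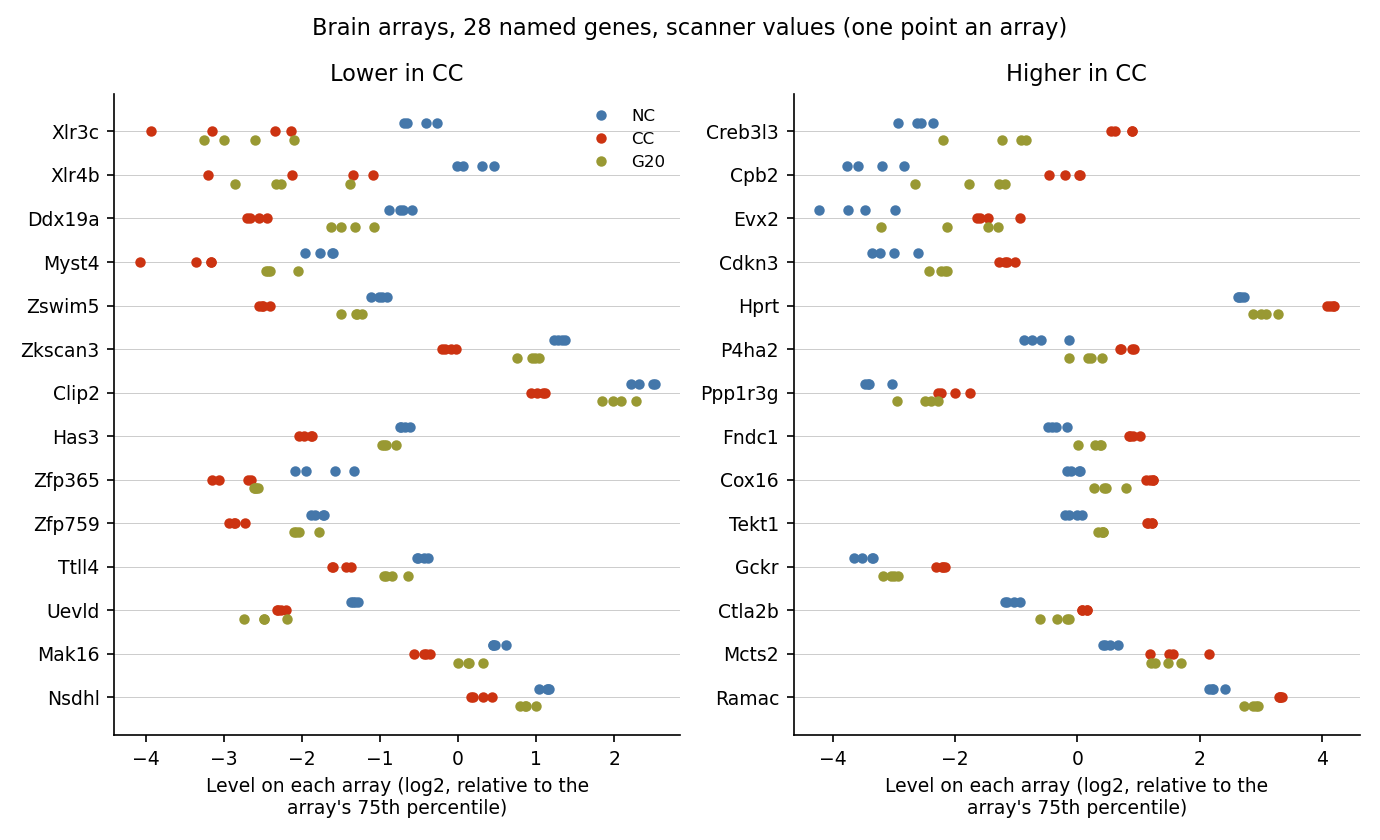
Level of 28 named genes on each of the 12 brain arrays, as log2 signal relative to the 75th percentile of the array, with the 14 lowest genes on the left and the 14 highest on the right. Each point is an array, in blue for NC, red for CC and olive for G20. NC and CC points are apart for each gene. G20 points overlap the CC points for Xlr3c, Xlr4b, Uevld, Evx2 and Mcts2. The G20 mean lies between the means of the other groups for most genes.

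The count of 95 moved with single arrays, since each of the 8 arrays lowered it by more than 1.5 times when left out. It was 26, 21, 58 and 29 without NC arrays 1 to 4, and 22, 13, 37 and 10 without CC arrays 1 to 4. The scanner count stayed at 12321 to 12721 genes in the same fits. Rpl13a, a ribosomal protein gene, was the only gene called in opposite directions by the sources, at 0.24 (adjusted p = 0.0122) in the scanner values and -0.35 (adjusted p = 0.0419) in the matrix.

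Some genes were well above background in only 1 of the groups. Of 18803 measured genes, 13021 of them called, this held for 440 called genes seen on all NC and no CC arrays. It also held for 16 called genes seen on all CC and no NC arrays, beside the lower signal of the CC arrays. Whether these counts differ from those of genes that were not called was not tested. Differences here are lower bounds against the dimmest level well above background. Where the gene's own level on the dim arrays was higher, that level was used. The value is then an estimate from dim signal and not a bound. The genes named next were picked by the group in which they were seen, so the folds describe them and are not a test. Elf4, an X-linked transcription factor of the Ets family, was at least 9.16-fold higher in CC, with CC arrays at -2.95, -3.79, -3.39 and -4.26. Fthl17e, an X-linked ferritin-like gene, was 5.23-fold higher. Plet1 and Gjd3, a gap junction gene measured on 3 NC arrays, were 3.53-fold and 3.51-fold higher. For Fthl17e, Plet1 and Gjd3 these are estimates against the gene's own dim NC level.

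In the other direction, Zfp345, a zinc finger gene, was at least 5.04-fold lower in CC, with its other probe at -1.10. Jade3, an X-linked chromatin gene, was at least 3.83-fold lower. Angpt1, a ligand that acts on endothelial cells, was 4.00-fold lower, an estimate against its own dim CC level. The normexp correction turned the sign of these 3 fitted differences, to between 0.44 and 0.65. None of the 7 genes had matrix values on all 8 arrays.

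Imprinted genes were called higher and lower at shares near or below those of all genes. Of 24 measured genes read from the paternal copy, 9 rose and 6 fell in the scanner values (37.5% and 25%, against 41.6% and 27.7% of all genes), with a median of 0.11, which was -0.10 with quantile normalization. Of 34 read from the maternal copy, 13 rose and 4 fell (38.2% and 11.8%), with a median of 0.12. In both sources 1 of 23 paternal and 1 of 31 maternal genes with matrix values were called, Mcts2 and Trappc9, against 0.565% of all genes.

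Mcts2, a paternally expressed retrogene that lies within another imprinted gene, read 0.54, 0.42, 0.45 and 0.66 in NC and 2.16, 1.50, 1.19 and 1.57 in CC. CC array 1 was the highest, and the groups did not overlap. Mcts2 lost its call in both sources in 11 of 19 alternatives, among them the fit of only the NC and CC arrays and 7 of the 8 fits without an array. The difference was 1.09 ± 0.18 (adjusted p = 0.000152), with 0.87 in the matrix (adjusted p = 0.043) and 0.90 for G20 in the scanner values. As a retrogene it is close in sequence to its parent gene, so the value may include that gene's RNA.

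Trappc9, a vesicle transport gene known to be read mainly from the maternal copy in mouse brain, read 2.50, 2.44, 2.41 and 2.51 in NC and 3.32, 3.40, 3.23 and 3.27 in CC. The difference was 0.84 ± 0.08 (adjusted p = 2.75e-06) and 0.60 ± 0.07 in the matrix (adjusted p = 0.00591). Neither group spread over more than 0.17, against a gap of 0.72 between them.

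Other well known imprinted genes differed between the sources. Plagl1, a paternally expressed zinc finger regulator of growth, read 3.66, 3.47, 3.52 and 3.68 in NC and 2.41, 2.70, 2.70 and 2.68 in CC. It fell by 0.96 ± 0.08 on the log2 scale (adjusted p = 1.12e-06) with its other probe at -1.22, while the matrix difference was -0.02 (adjusted p = 0.927). For G20 the Plagl1 difference was 0.98 in the scanner values, so CC and G20 lay on opposite sides of NC.

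Peg3, a paternally expressed zinc finger gene, read 1.53 to 1.91 in NC and 0.16 to 0.42 in CC. It fell by 1.46 ± 0.11 (adjusted p = 4.01e-07) with its other probe at -0.92, and the matrix difference was -0.11 (adjusted p = 0.7). Snrpn and Snurf, which share a paternally expressed transcript, fell by 0.75 and 0.92, with matrix differences of -0.17 and -0.12. In the matrix G20 differed from NC by -0.08 for Peg3, 0.06 for Snrpn and 0.11 for Snurf. The NC, CC and G20 levels of these genes thus lay close together there.

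Igf2, the foetal growth factor, differed by -0.19 ± 0.15 (adjusted p = 0.279), and H19, the maternally expressed RNA beside it, by -0.12 ± 0.23 (adjusted p = 0.669). NC and CC arrays overlapped for both genes. Rian, a maternally expressed RNA of the Dlk1 and Dio3 region, differed by -0.48 ± 0.30 (adjusted p = 0.175), with CC arrays over a range of 1.49.

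On the X chromosome the scanner values gave 230 genes higher and 226 lower of 671 (34.3% and 33.7%), against 41.8% and 27.5% of 18029 autosomal genes. The median X-linked difference was 0.03, below the medians of all 19 autosomes, which ran from 0.04 to 0.24. With the normexp correction the X-linked median of 0.37 lay above those of chromosomes 2, 5, 14 and 18, at 0.33, 0.36, 0.35 and 0.36. In the matrix the X-linked median was 0.04, like that of all genes, with 2 genes higher and 4 lower, against 44 and 76 over all genes. The 95 genes called in both sources, of 18803 measured, held 6 of the 671 X-linked genes. Whether that share differs from the share of all genes was not tested. Xlr3c, Xlr4b, Nsdhl and Hprt are the X-linked ones named above.

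Xist was not called with its brightest probe. NC arrays read 3.28, 3.40, 3.41 and 3.41, and CC arrays 3.13, 3.50, 3.98 and 4.15. CC thus spread over 1.01 and NC over 0.13, and the difference was 0.32 ± 0.18 (adjusted p = 0.132), with 0.01 in the matrix. The other Xist probes read 0.18, -0.12 and -0.77, and the last of these was lower in CC (adjusted p over probes = 6.88e-05), opposite in sign to the brightest probe. Tsix, the antisense RNA of Xist, differed by 1.51 (adjusted p = 2.58e-05) and Rlim, the X-linked activator of Xist, by 0.96, with matrix differences of 0.08 and -0.05 and other Rlim probes at -0.38 and 0.44.

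Several families of housekeeping genes rose in the scanner values. Of 37 measured subunits of respiratory complex I, which passes electrons from NADH into the respiratory chain, 31 rose and none fell (83.8% higher, against 41.6% of all genes), with a median of 0.80. Ndufa1, an X-linked subunit, read 4.08, 4.02, 3.97 and 4.04 in NC and 5.42, 5.53, 5.47 and 5.51 in CC. Its difference was 1.46 ± 0.10 (adjusted p = 2.66e-07), and 0.11 in the matrix (adjusted p = 0.61). Ndufa2 and Ndufa3 differed by 0.79 and 0.62.

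Of 38 genes of complexes II to V, 33 rose and 2 fell (86.8% and 5.26%, against 41.6% and 27.7% of all genes), with a median of 0.80. The first members of that list, the succinate dehydrogenase genes Sdha, Sdhb and Sdhc, differed by -0.48, 1.05 and -0.23, and Sdhc was not called (adjusted p = 0.0568). With quantile normalization the medians of both respiratory lists were 0.35 and 0.14, and in the matrix 0.05 and 0.03.

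Ribosomal proteins gave 39 higher and 1 lower of 46 in the large subunit and 26 higher of 32 in the small subunit (84.8% and 81.2% higher, against 41.6% of all genes), with medians of 0.66 and 0.72. Rpl5 and Rps2 differed by 1.04 and 0.92, Rps3 by 0.55, and Rpl3, Rpl4 and Rpsa were not called at -0.07, -0.08 and 0.17. With quantile normalization both medians lost their direction, at -0.00033 and -0.02, and in the matrix they were 0.02 and 0.04. The rise of ribosomal protein genes was thus seen in the scanner values centred on a percentile and not after quantile normalization.

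Of 31 proteasome genes 20 rose and 5 fell (64.5% and 16.1%, against 41.6% and 27.7% of all genes), with a median of 0.40 that was -0.05 with quantile normalization. Psma1, Psma2 and Psma3, which form part of the catalytic core, differed by 0.91, 1.25 and 0.55. Psmc3, an ATPase of the regulatory cap and the list's only gene called in both sources, fell by 0.32 (adjusted p = 0.00278), and its matrix difference was -0.38 (adjusted p = 0.043).

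Glycolysis gave 13 higher and none lower of 18 (72.2% higher, against 41.6% of all genes), with a median of 0.53 that was 0.15 with quantile normalization and 0.06 in the matrix. The first 3 members Hk1, Gpi1 and Pfkl differed by 0.52, 1.02 and 0.62, though 2 of 5 Hk1 probes were below 0. The shares called moved with the level. In the lowest of 4 equal classes of genes by NC level 33% were higher and 28.5% lower, and in the highest class 56.6% were higher and 19.4% lower, with median differences of 0.05 and 0.31. The part of signal level in the values of these families was not tested.

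Genes of immune cells and of the interferon response also rose in the scanner values. Of 29 measured genes of the interferon response and antigen presentation 20 rose and none fell (69.0% higher, against 41.6% of all genes), with a median of 0.73 that was 0.87 with quantile normalization and 0.06 in the matrix. Irf1, a transcription factor of the response, differed by 1.07 (adjusted p = 8.15e-06), and Irf9 was not called at 0.03 (adjusted p = 0.873). Irf7, a further factor of the response, was well above background on 2 NC and 4 CC arrays. Its difference of 1.78 is thus an estimate from dim signal and not a test. The median NC level of the list was -3.05, so these were dim genes. No member was called in the matrix.

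Of 21 microglia and macrophage genes 12 rose and 3 fell (57.1% and 14.3%, against 41.6% and 27.7% of all genes), with a median of 0.61 in the scanner values and 0.08 in the matrix. Their summed signal was 12.2 to 12.8 times the 75th percentile on NC arrays, 20.0 to 21.5 on CC arrays and 11.8 to 12.4 on G20 arrays. Csf1r, the receptor on which microglia depend, and Aif1 differed by 0.62 and 0.94, and both had another probe of the same sign. Cx3cr1, the fractalkine receptor of microglia, fell by 0.58 (adjusted p = 0.00321), with NC array 1 within the CC range. In bulk tissue a change in the number of cells and a change in RNA per cell cannot be told apart.

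Genes of glutamatergic neurons and of the synapse were lower more often than higher in the scanner values. Of 24 genes of glutamatergic cortical neurons 6 rose and 10 fell (25% and 41.7%, against 41.6% and 27.7% of all genes), with a median of -0.05, which was 0.09 with median centring and -0.36 with quantile normalization. Tbr1, a transcription factor of deep-layer cortical neurons, read 1.54, 1.45, 1.31 and 1.11 in NC and -1.05, -1.07, -0.35 and -0.65 in CC. It fell by 2.13 ± 0.17 (adjusted p = 5.13e-07), and its matrix difference was -0.53 (adjusted p = 0.14). Neurod6, a transcription factor of excitatory neurons, differed by -0.49.

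Of 30 synapse genes 9 rose and 14 fell (30% and 46.7%, against the same shares of all genes), with a median of -0.15, which was -0.02 with median centring, -0.43 with quantile normalization and 0.03 in the matrix. Syn1 and Syp, proteins of synaptic vesicles, differed by -0.53 and -0.33, and Syn2 by 0.67. The other Syn1 probes read 0.37 and -1.08. Those of Syn2 read 0.63 and -0.27, the latter opposite in sign to its brightest probe (limma adjusted p over probes = 0.00625). None of the members of either neuronal list was called in the matrix. Of 32 chromatin and DNA methylation genes 10 rose and 13 fell (31.2% and 40.6%, against 41.6% and 27.7% of all genes). Dnmt1, the maintenance methyltransferase, rose by 0.39 in the scanner values, and its matrix difference was 0.07 (adjusted p = 0.641).

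Dnmt3a, a methyltransferase that sets new methylation, shows how probes of a gene could part. Its brightest probe read -1.07 and its other 2 probes 0.33 and 0.78, each with an adjusted p over probes at or under 0.00718. Over 6323 genes with at least 2 measured probes, all probes had the same sign in 51.7%, against 52.0% for G20 against NC. All probes were called in the same direction in 1686 genes, 842 higher and 844 lower (13.3% each). Dnmt3b was not called at 0.13 (adjusted p = 0.221).

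**Figure D4:**
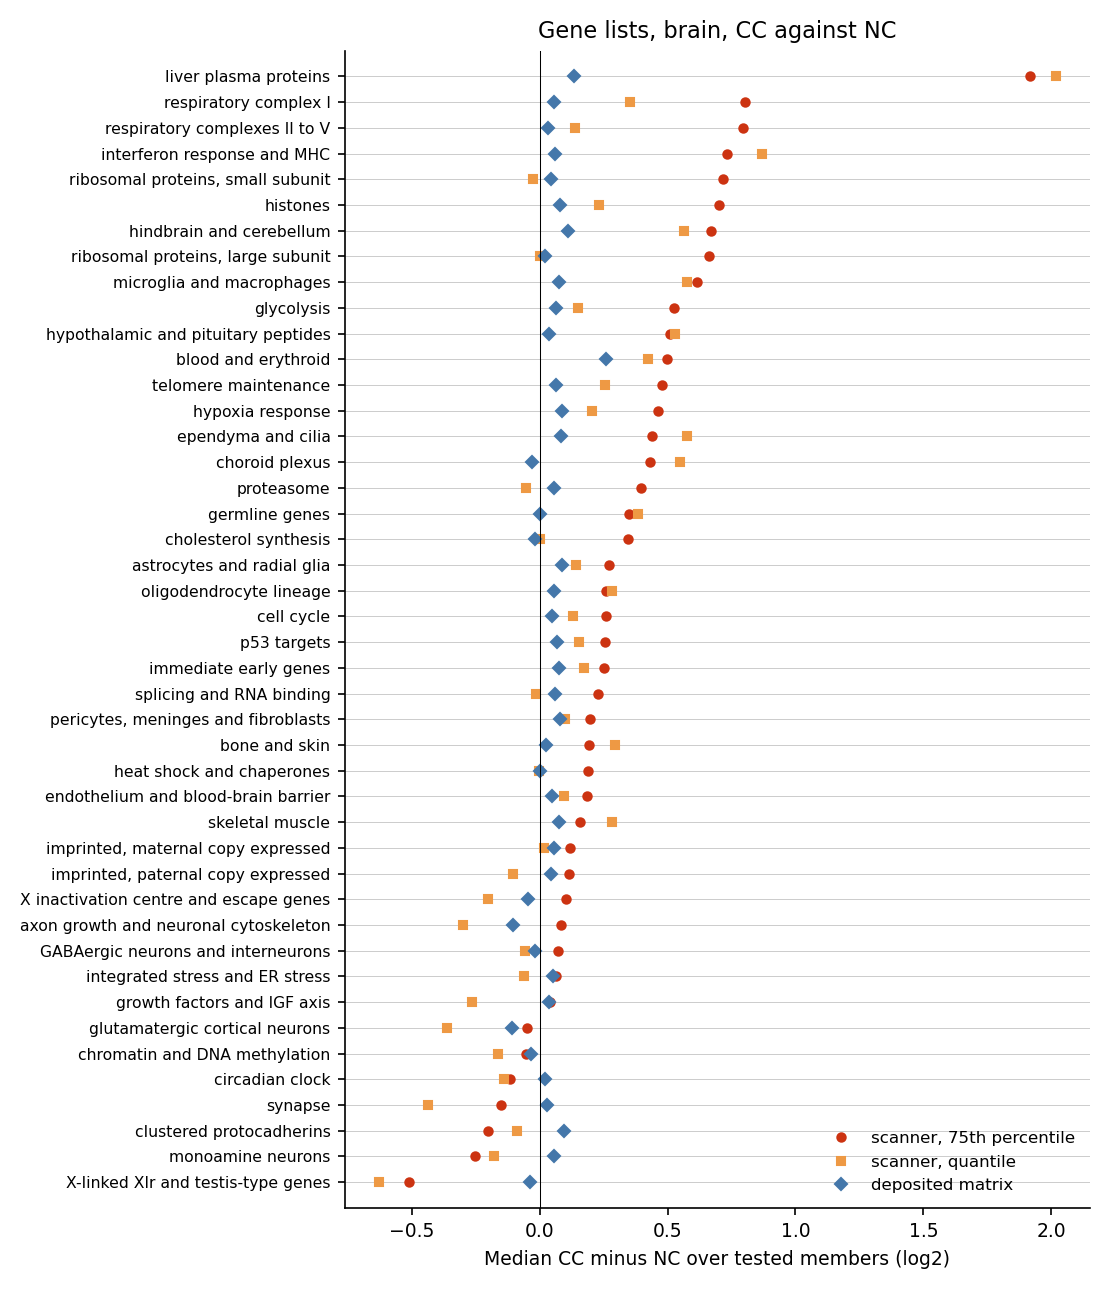
Median difference between CC and NC over the measured members of 44 gene lists, with circles for scanner values centred on the 75th percentile, squares for quantile-normalized scanner values and diamonds for the deposited matrix (log2). In the matrix the medians lie between -0.11 and 0.26. In the scanner values they reach 0.80 for respiratory complex I and 1.92 for liver plasma proteins, and the ribosomal lists fall to near 0 with quantile normalization.

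The spread among the clones was set beside that among the controls. Each array was compared with the average of its 3 group mates over 18714 genes. The root mean square of these log2 differences was 0.313, 0.254, 0.279 and 0.259 on NC arrays 1 to 4 and 0.314, 0.312, 0.297 and 0.268 on CC arrays 1 to 4. The groups overlapped, with a difference of 0.0212 between their means (exact two-sided permutation p = 0.286, for which 70 splits allow no less than 0.0286). With the normexp correction the difference was 0.459 (p = 0.0286 by the same exact permutation test).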

How the data were processed

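The submitters' processing notes and the file headers name Agilent Feature Extraction 9.5.3.1. The deposited spot intensity is background-subtracted and detrended, with no scaling between arrays, per the file headers. The flags for background, saturation and outliers hold 0 or 1, per the file headers. The deposited matrix holds the authors' linear intensity values, linear in scale, and the sources used here do not state how they were normalized or centred. It was put on the log2 scale here and each array centred on its 75th percentile, and no column was left unused (0). Positions on mm8 are those printed in the scanner files.

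Outlier spots were removed and spots of a probe averaged. Signal was taken as log2 minus the 75th percentile of the array. Probes were named through RefSeq accessions where matched (23374 probes), and otherwise by the file. A probe was kept if any of the 3 brain groups had it well above background on its full set of 4 arrays, and the brightest stood for its gene. limma 3.58.1 in R 4.3.3 was fitted over 12 brain arrays, with Benjamini-Hochberg adjustment over all genes and errors given as SE. The script was tested on simulated data.

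A gene was called in both sources if scanner and matrix calls had 1 direction and all its other probes had that sign in the scanner values. The 14 highest and 14 lowest of these with a gene symbol, well above background on all 8 arrays and with no overlap of groups, are named. So are the 4 largest bounds each way (a few genes that these rules name are not reported here), genes called oppositely, up to 6 members of a list called in both sources or some of its first 3, Xist, H19, Igf2, Plagl1, Peg3, Snrpn and the Xlr genes. The members and lists were chosen with earlier results of these data known, and a few imprinted genes were moved between lists or removed after values were seen. Of 1157 list entries in 44 lists, 176 were not measured. Numbers of arrays limit the precision. Same-numbered NC and CC arrays did not deviate together (r of -0.11 to 0.08), so the numbers were not used as pairs.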

Additional observations from a re-analysis of the deposited data

Results flagged for a closer look

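Within groups of 4 arrays, single arrays stood far from the other 3 in 11 of 173 groups of named-gene values, where chance alone is expected to mark about 1 in 20. In NC, these were array 2 for Mak16 (0.61, others 0.44 to 0.47), Ppp1r3g (-3.03, others -3.48 to -3.42) and Syn2 (3.65, others 3.54), array 1 for Xist (3.28, others 3.40 to 3.41) and Rian (2.69, others 3.36 to 3.48), array 4 for Rpl4 (2.84, others 2.95 to 2.97) and array 3 for Irf9 (-0.80, others -0.27 to -0.20). In CC, these were array 1 for Plagl1 (2.41, others 2.68 to 2.70), array 3 for Snurf (2.71, others 2.45 to 2.46) and Tsix (-1.06, others -1.76 to -1.65), and array 4 for Jade3 (-6.29, others -6.45 to -6.44). All values are log2 levels relative to the 75th percentile of the array.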

How the results depend on the processing

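The number of genes called in both sources (95) moved to 55 with the normexp correction, 170 with only the NC and CC arrays, 157 with a variance trend and robust fitting, 35 with the mean of all probes and 26 with the second brightest probe. Leaving out 1 array gave 10 to 58. Normexp gave 5387 called genes, 3618 higher and 1769 lower, and no filter on dim probes gave 20759, with 15553 higher. The deposited matrix gave 119 called genes as deposited (45 higher, 74 lower) and 120 when centred (44 and 76). With the replicate block the count in both sources was 24, of which 22 were among the 95, while 12843 scanner calls remained, and the numbers do not pair the animals.

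The spread difference of 0.0212 was 0.459 with normexp (exact permutation p = 0.0286) and -0.0414 with no filter on dim probes (exact permutation p = 0.0571). Of 95 genes, 83 kept their direction in every scanner alternative. Among 1803 values of 87 named genes, 23 changed sign against a call. Normexp gave 0.444 for Zfp345, 0.561 for Angpt1, 0.645 for Jade3, 0.557 for Myh1 and -0.0565 for Rpl13a. Quantile normalization gave -0.319 for Rpl13a and -0.165 for Rps3. The matrix, as deposited and then centred, gave -0.345 and -0.346 for Rpl13a, -0.0458 and -0.0472 for Rlim, 0.0462 and 0.0448 for Syp, -0.0698 and -0.0713 for Ndufa3, -0.0632 and -0.0646 for Rps3, and -0.00959 and -0.011 for Hk1. The second brightest probe gave -0.766 for Xist, 0.367 for Syn1 and 0.784 for Dnmt3a, and the mean of all probes gave 0.0159 for Dnmt3a. The cause of these changes was not tested. On the CC arrays 63.0% to 64.5% of probes gave signal well above background. A group without such signal gives only a bound or an estimate from dim signal.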
